A study of Mus musculus with 6 samples.

Results

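The genes described here are 10 genes of the secondary (specific) and tertiary (gelatinase) granules of neutrophils, *Camp*, *Ngp*, *Ltf*, *Lcn2*, *Fcnb*, *Mmp8*, *Mmp9*, *Chil3*, *Cd177* and *Hp*, picked by symbol from the 55367 genes of an RNA-seq table of leukemia stem cells (LSCs). They were picked with the difference between the groups of this table known, so their differences are given as a description without p-values. All 10 had values, and all 10 passed the filter on low values that left 16746 genes to test. LSCs came from the bone marrow of mice with acute myeloid leukemia driven by MLL-AF9, a fusion of the histone methyltransferase MLL with AF9. Lineage-negative bone marrow cells had been infected with an MSCV retrovirus carrying MLL-AF9 and YFP and transplanted, and LSCs were sorted as YFP+ Lin- Sca-1- c-Kit+ CD34+ CD16/32hi cells. The 3 WT libraries came from *Piezo1* fl/fl cells without Cre and the 3 *Piezo1cKO* libraries from *Piezo1* fl/fl cells with Mx1-cre, whose promoter responds to interferon and is not limited to blood cells. Mice of both groups had received poly(I:C), and the labels give an age of 8 to 10 weeks. They do not say whether the libraries of a group came from separate mice or separate leukemias, so the errors and p-values measure the spread between these libraries, which may be technical.

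Neutrophil precursors build their granules in waves, primary granules with myeloperoxidase and elastase in promyelocytes, secondary granules with lactoferrin and cathelicidin in myelocytes, and tertiary granules with gelatinase in metamyelocytes and band cells. A protein goes to the granule that is being built when its gene is transcribed, so the set of granule transcripts follows the stage of the cell. C/EBPε is the factor best known to be needed for secondary granule genes, and LSCs of MLL-AF9 leukemia resemble granulocyte-macrophage progenitors, which stand before these stages.

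The deposited table gives log2 values corrected for library size, in which every gene is shrunk towards its own mean over the 6 libraries. Differences are therefore understated, above all for genes with few reads. The shrinkage could be undone, and for 99.98% of the 26402 genes with values whole numbers of reads returned all 6 deposited values within 1e-06. Totals of recovered reads on genes were 15406305, 14745565 and 15483603 in WT libraries and 14112222, 15094276 and 14456776 in *Piezo1cKO* libraries. Log2 fold changes, list medians and adjusted p-values of genes other than the members are of deposited values unless recovered reads are named. Other values below are normalized recovered reads (reads divided by the size factor of the library) unless the deposited scale is named. They carry no molecular identifiers, so intervals and limits cover counting error only. Libraries of the same group differed by more than counting noise in every pair, with a mean chi-square of 1.56 to 2.80 per gene, so none was a copy of another. *Piezo1*, the gene deleted, had 101, 92.8 and 109 normalized reads in WT libraries and 36.6, 56.5 and 45.8 in *Piezo1cKO* libraries, 45.9% of the WT mean. Reads on its deleted exons could not be told apart from the rest.

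The members lie on 5 chromosomes of GRCm38 and mostly far apart. *Camp* (chr9:109847379-109849617), *Ngp* (chr9:110419747-110423012) and *Ltf* (chr9:111019271-111042767) follow each other on chromosome 9 with 570.1 kb between *Camp* and *Ngp* and 596.3 kb between *Ngp* and *Ltf*, and *Mmp8* (chr9:7558456-7568485) is on the same chromosome. *Fcnb* (chr2:28076378-28084885), *Lcn2* (chr2:32384633-32388252) and *Mmp9* (chr2:164940780-164955850) are on chromosome 2. *Chil3* is at chr3:106147554-106167564, *Cd177* at chr7:24743983-24760311 and *Hp* at chr8:109575128-109579172. RefSeq promoters on GRCm38.p6 were at hand for 8 members, all but *Mmp9* and *Hp*. The 250 bases before the start were searched on both strands for TTGCNNAA, a form of the C/EBP site whose reverse complement is TTNNGCAA, and for GAGGAA, a core of sites of ETS factors such as PU.1 (reverse complement TTCCTC). The C/EBP letters were found in 5 of the 8 members and in 9.6% of all 32536 promoters. *Ngp* had matches that begin 138 and 11 bases before the start, *Fcnb* at 235 and 123 bases, *Mmp8* at 19, *Ltf* at 75 and *Lcn2* at 216, whereas *Camp*, *Chil3* and *Cd177* had none. The ETS letters were in 4 of the 8 (*Ltf*, *Lcn2*, *Mmp8* and *Cd177*) and in 23.4% of all promoters. The window of *Lcn2* lies inside the gene as GENCODE places it, and its C/EBP and ETS matches both fall on exon bases there. A match is only a match of letters and shows no binding. The promoters of *Ngp* and *Fcnb*, lower in *Piezo1cKO* LSCs, of *Mmp8*, higher there, and of *Cd177*, whose groups overlapped, are printed 5′ to 3′ with the C/EBP matches in capitals, leaving out bases that GENCODE places in an exon of the gene, which removes the match of *Ngp* closest to the start. Their regions are chr9:110419558-110419746 (plus strand), chr2:28084886-28085128 (minus strand), chr9:7558179-7558428 (plus strand) and chr7:24760312-24760561 (minus strand).
Ngp: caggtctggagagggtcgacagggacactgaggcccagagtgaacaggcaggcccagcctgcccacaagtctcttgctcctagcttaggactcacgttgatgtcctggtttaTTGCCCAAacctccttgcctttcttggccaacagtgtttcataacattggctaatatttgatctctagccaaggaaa
Fcnb: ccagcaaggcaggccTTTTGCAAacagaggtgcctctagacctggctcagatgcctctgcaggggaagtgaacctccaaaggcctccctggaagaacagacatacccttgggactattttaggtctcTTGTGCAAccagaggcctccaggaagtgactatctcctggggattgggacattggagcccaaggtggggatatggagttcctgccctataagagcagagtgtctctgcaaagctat
Mmp8: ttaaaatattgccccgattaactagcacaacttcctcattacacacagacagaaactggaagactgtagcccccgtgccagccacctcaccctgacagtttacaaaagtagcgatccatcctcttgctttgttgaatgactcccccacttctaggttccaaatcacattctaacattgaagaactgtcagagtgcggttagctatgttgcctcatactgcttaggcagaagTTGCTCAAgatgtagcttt
Cd177: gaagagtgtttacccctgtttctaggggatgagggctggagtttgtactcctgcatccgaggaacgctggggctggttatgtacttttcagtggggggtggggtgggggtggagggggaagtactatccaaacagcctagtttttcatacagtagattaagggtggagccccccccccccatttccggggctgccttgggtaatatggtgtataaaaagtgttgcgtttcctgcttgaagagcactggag
*Ngp*, lower in *Piezo1cKO* LSCs, and *Mmp8*, higher there, thus both had matches of the C/EBP letters, while *Camp*, also lower, had none.

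The members moved in opposite directions. *Camp*, *Ngp*, *Fcnb* and *Chil3* were lower in *Piezo1cKO* LSCs, *Mmp8* was higher, and *Cd177*, *Lcn2* and *Hp* differed from the WT mean by far less, at 104%, 80.1% and 80.9% of it. On the deposited scale, 4 members were lower and 1 was higher past both thresholds for a differentially expressed gene (DEG), which are a log2 fold change beyond 1 in either direction and a limma adjusted p under 0.05. Of all 16746 genes tested, 0.561% were lower and 0.257% higher by this rule. Groups did not overlap for 7 members that were lower and 1 that was higher, against 33.1% lower and 33.5% higher of all genes tested, so separate groups are common in this table. By the adjusted p alone (limma, under 0.05), 31.4% of all genes were lower and 31.6% higher. On recovered reads (limma-voom, 17352 genes with at least 10 reads), 6 members were lower and 1 higher past the same thresholds, against 12.2% and 12.7% of genes. The 6 include *Ltf* and *Mmp9*, which had at most 1 read in any *Piezo1cKO* library, and the call of *Ltf* rests on a fitted value that its reads do not bound. Because the members were picked on this contrast, their counts are no evidence about granule genes as a class.

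**Figure D1:**
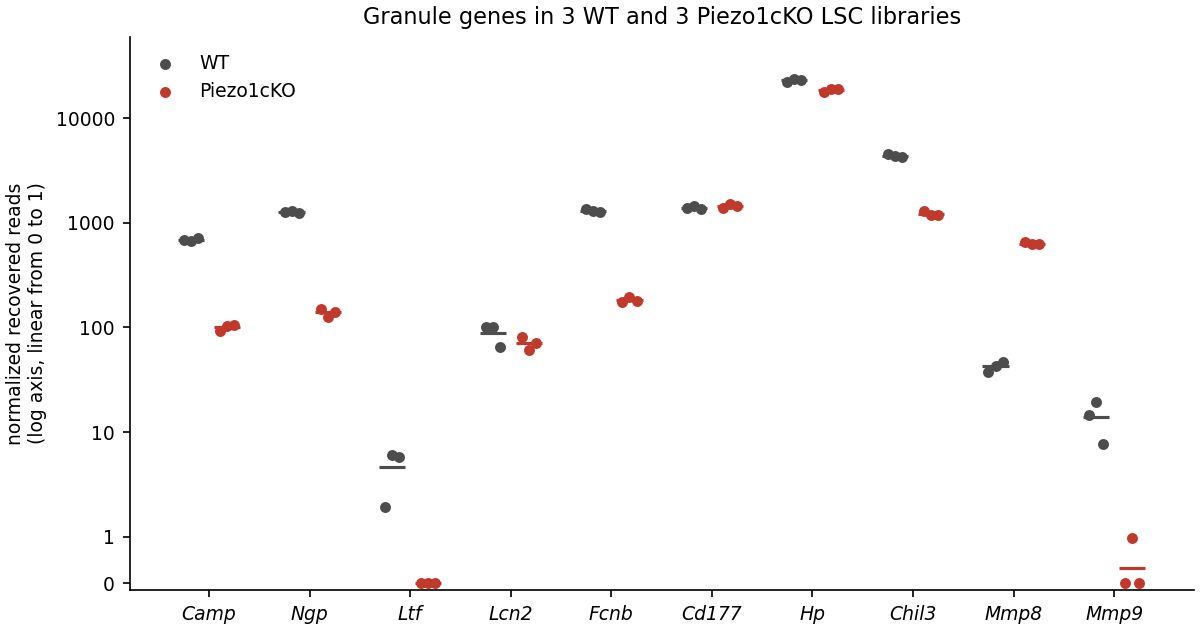
Normalized recovered reads of each member (log axis, linear from 0 to 1) in 3 WT (grey) and 3 *Piezo1cKO* (red) libraries, with a bar at the mean of each group. *Camp*, *Ngp*, *Fcnb* and *Chil3* lie lower in all 3 *Piezo1cKO* libraries, *Mmp8* lies higher, and the groups overlap for *Lcn2* and *Cd177*.

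Among the antimicrobial proteins of the secondary granule, *Ngp* and *Camp* both fell, *Ngp* by more. *Ngp* encodes neutrophilic granule protein, a cystatin-like protein of myelocytes. It had 1282, 1307 and 1243 normalized reads in WT libraries and 151, 127 and 140 in *Piezo1cKO* libraries. The groups lay far apart, with the *Piezo1cKO* mean at 10.9% of the WT mean and a log2 fold change of -3.20 (SE 0.09) on recovered reads and -1.90 (SE 0.04) on the deposited scale. *Camp* encodes the cathelicidin precursor from which the antimicrobial peptide CRAMP is cut. It had 679, 664 and 720 normalized reads in WT libraries and 93.0, 103 and 105 in *Piezo1cKO* libraries, 14.6% of the WT mean. Its log2 fold change was -2.77 (SE 0.10) on recovered reads and -1.46 (SE 0.04) on the deposited scale. The ratio of *Ngp* to *Camp* reads was 1.89, 1.97 and 1.73 in WT libraries and 1.63, 1.23 and 1.34 in *Piezo1cKO* libraries. The groups did not overlap, but the closest ratios, 1.73 and 1.63, lay near each other. The latter rests on 145 *Ngp* and 89 *Camp* reads, and no counting error was computed for these ratios.

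*Ltf*, which encodes the iron-binding protein lactoferrin, the textbook marker of the secondary granule, was barely detected. It had 2, 6 and 6 recovered reads in WT libraries and none in *Piezo1cKO* libraries. At these depths 0 reads allow up to 3 reads per library, so WT LSCs were at least about 1.5-fold higher. This bound takes the WT mean as exact, and no counting interval was computed for *Ltf*. *Lcn2*, which encodes lipocalin 2, a carrier that binds bacterial siderophores, had 102, 101 and 64.5 normalized reads in WT libraries and 81.5, 61.4 and 71.2 in *Piezo1cKO* libraries. WT replicate 3 was inside the range of the *Piezo1cKO* libraries, and the groups overlapped. Its residual SD on the deposited scale, 0.083, was above that of 92.0% of the 200 genes closest to it in mean value, whose median was 0.048. *Lcn2* was thus the member with the widest spread for its level.

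*Fcnb* encodes ficolin B, a lectin that recognises microbial sugars and can start the lectin pathway of complement. It had 1352, 1306 and 1262 normalized reads in WT libraries and 177, 197 and 178 in *Piezo1cKO* libraries, 14.1% of the WT mean. The log2 fold change was -2.83 (SE 0.08) on recovered reads and -1.72 (SE 0.04) on the deposited scale. This proportion was close to that of *Camp*. *Chil3* encodes the chitinase-like protein Ym1, made by neutrophil precursors and by alternatively activated macrophages. It had 4566, 4328 and 4275 normalized reads in WT libraries and 1289, 1183 and 1196 in *Piezo1cKO* libraries, 27.9% of the WT mean. Its groups were also far apart, with a log2 fold change of -1.85 (SE 0.04) on recovered reads and -1.30 (SE 0.03) on the deposited scale. *Chil3* has a near-identical relative, *Chil4*, listed with 0.657 normalized reads on average in WT libraries and none in *Piezo1cKO* libraries, and reads shared by the pair could have been counted for either or for neither.

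The pair of matrix metalloproteinases went apart. *Mmp8* encodes neutrophil collagenase, which cuts fibrillar collagens and is stored in the secondary granule. It had 37.8, 42.4 and 47.1 normalized reads in WT libraries and 651, 623 and 627 in *Piezo1cKO* libraries. Every *Piezo1cKO* library was above every WT library, with means 14.9-fold apart. The log2 fold change was 3.89 (SE 0.14) on recovered reads and 1.82 (SE 0.04) on the deposited scale. *Mmp8* took 0.40%, 0.46% and 0.53% of the members' reads other than those of *Hp* in WT libraries and 17.0%, 16.3% and 16.7% in *Piezo1cKO* libraries. *Mmp9* encodes gelatinase B, the enzyme that gives the tertiary granule its other name. It had 15, 19 and 8 recovered reads in WT libraries and 0, 1 and 0 in *Piezo1cKO* libraries. The ratio of WT to *Piezo1cKO* reads, each summed over the group and divided by its summed size factors, was 40.7, with a 95% counting interval (exact binomial) from 6.92 to 1645. On the deposited scale the difference shrank to -0.10 (SE 0.02), far from the DEG thresholds, so the call of *Mmp9* depends on the scale.

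*Cd177* and *Hp* are found in the secondary granule of human neutrophils, *Cd177* also on the cell surface. *Cd177*, a GPI-anchored glycoprotein that binds PECAM1, had 1383, 1451 and 1347 normalized reads in WT libraries and 1396, 1521 and 1446 in *Piezo1cKO* libraries. The groups overlapped, and its log2 fold change was 0.06 (SE 0.05) on recovered reads. The ratio of *Cd177* to *Ngp* reads was 1.08, 1.11 and 1.08 in WT libraries and 9.21, 12.0 and 10.3 in *Piezo1cKO* libraries, since *Ngp* was lower while the groups of *Cd177* overlapped. *Hp* encodes haptoglobin, which binds free hemoglobin. It had 22164, 23775 and 23299 normalized reads in WT libraries and 17809, 19100 and 19122 in *Piezo1cKO* libraries. The groups did not overlap, but the step was small, 80.9% of the WT mean, with a log2 fold change of -0.30 (SE 0.03) on recovered reads. *Hp* held 70.2%, 72.0% and 72.2% of all member reads in WT libraries and 82.3%, 83.3% and 83.6% in *Piezo1cKO* libraries, so any sum over the members mostly gives the level of *Hp*. Without *Hp*, the other 9 members took 0.063%, 0.062% and 0.060% of the reads in WT libraries and 0.026% in each *Piezo1cKO* library.

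**Figure D2:**
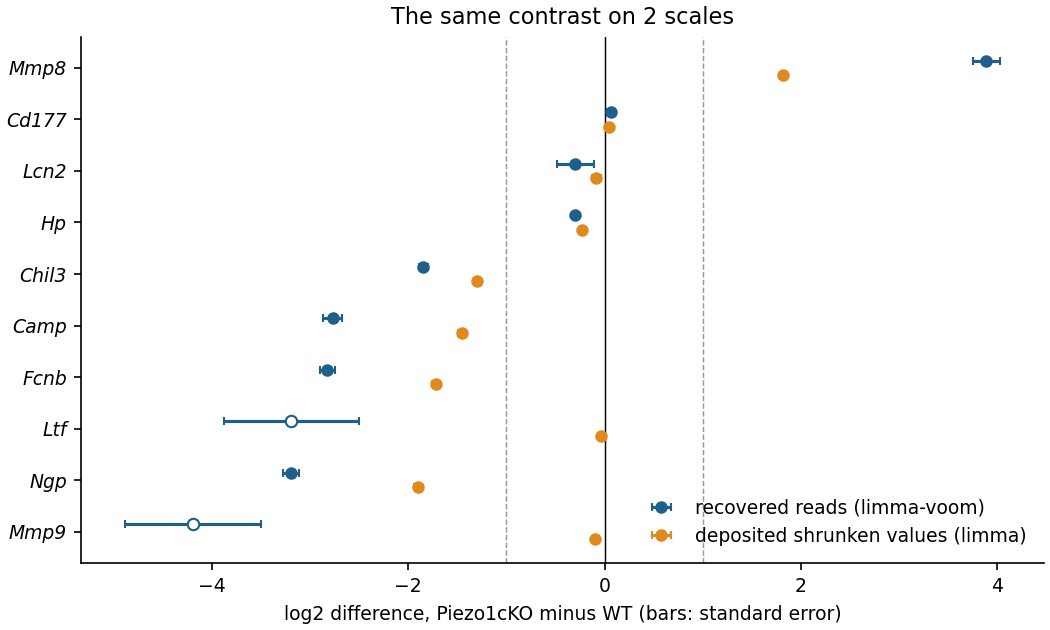
Log2 difference, *Piezo1cKO* minus WT, of each member on recovered reads (blue) and on the deposited shrunken values (orange), with bars for the standard error and dashed lines at the DEG threshold of 1. *Mmp9* and *Ltf* (open symbols) have 3 reads or fewer in *Piezo1cKO* libraries, where the fitted value depends on the prior count, and both are near 0 on the deposited scale.

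Levels of different genes were compared as recovered reads per kilobase of exon (GENCODE exon model) and per 1000000 reads on genes. In WT LSCs *Hp* was at 964 ± 36.8 (SD, n = 3), rank 13 of 25529 genes, and *Chil3* at 180 ± 5.96, rank 220. *Ngp* (70.1 ± 1.79), *Fcnb* (65.4 ± 2.12) and *Camp* (60.8 ± 2.55) came next. *Ngp* was above both in every library, whereas the libraries of *Fcnb* and *Camp* overlapped. *Cd177* followed at 32.9 ± 1.29, well above *Lcn2* at 2.28 ± 0.54 and *Mmp8* at 1.17 ± 0.13. *Mmp9* (0.262 ± 0.11) and *Ltf* (0.089 ± 0.045) were the lowest. In *Piezo1cKO* LSCs the order was different below *Hp* (790 ± 32.7) and *Chil3* (50.9 ± 2.35), with *Cd177* (34.8 ± 1.54) next and *Mmp8* (17.7 ± 0.40) above *Fcnb* (9.33 ± 0.58), *Camp* (8.99 ± 0.59) and *Ngp* (7.76 ± 0.68). The libraries of *Fcnb* overlapped those of *Camp*, and those of *Camp* overlapped those of *Ngp*. Over coding length these 3 ran the other way, with *Ngp* at 18.9, *Camp* at 13.2 and *Fcnb* at 12.2. *Mmp8* moved from rank 10177 to rank 3214, and *Ngp* from rank 854 to rank 5277. *Mmp8* and *Ngp* changed places, with 0.029, 0.032 and 0.038 *Mmp8* reads per *Ngp* read in WT libraries and 4.30, 4.92 and 4.46 in *Piezo1cKO* libraries.

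**Figure D3:**
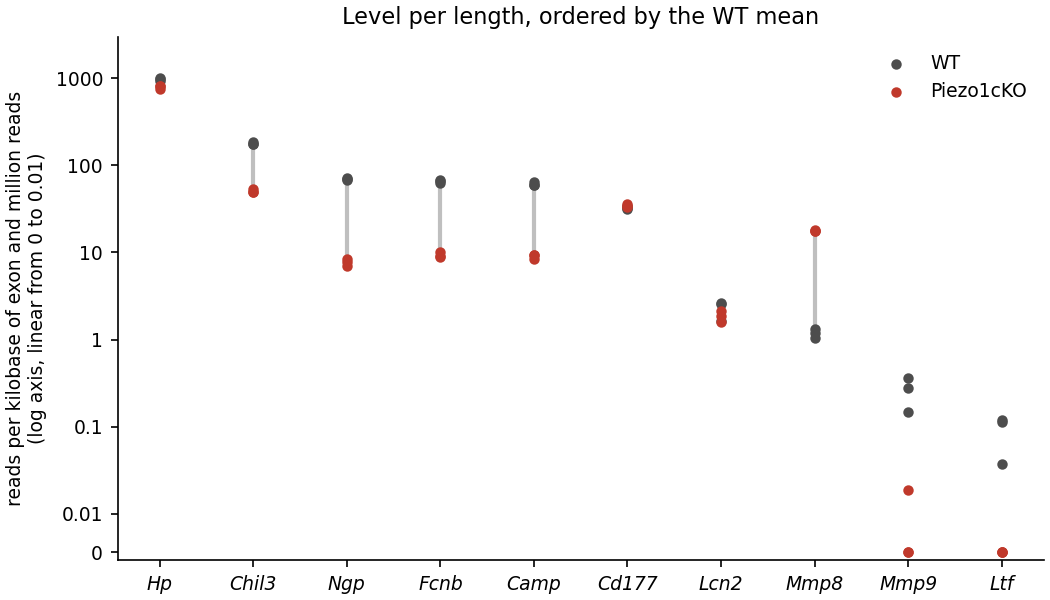
Recovered reads per kilobase of exon and per 1000000 reads on genes (log axis, linear from 0 to 0.01) in each of 3 WT (grey) and 3 *Piezo1cKO* (red) libraries, with members ordered by the WT mean and a grey line joining the group means where no library is at 0. The order runs from *Hp* at 964 to *Ltf* at 0.089 in WT LSCs. *Mmp8* rises from 1.17 to 17.7, above *Fcnb*, *Camp* and *Ngp*. *Cd177*, at 32.9 and 34.8, also comes above them in *Piezo1cKO* LSCs.

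After *Lcn2*, *Hp* had the widest spread within groups for its level. The residual SD of *Camp* (0.036) and *Mmp8* (0.031) was larger than that of 23.5% and 14.5% of their 200 closest genes in mean value, and that of *Hp* (0.041) larger than that of 81.0%. The genes whose centred profile over the 6 libraries lay closest to a member were named by a fixed rule (Euclidean distance, mean deposited value of at least 5, 10927 genes). With 3 libraries against 3, the size of the group difference sets such a distance almost alone. Those closest to *Ngp* were *Tarm1*, *Stim2* and *Rps3a2*, at distances of 0.092 to 0.146. Closest to *Camp* were *Mthfd2*, *Cdkn2c* and *Xlr*, and closest to *Fcnb* were *Hnrnpu*, *Gm37024* and *Marchf5*. *S100a9*, *Ly6k* and *Smarcd2* were closest to *Chil3*, at 0.059 to 0.108, and *Ndufa12-ps*, *Lpcat2* and *Npy* to *Mmp8*, at 0.143 to 0.170. The like genes of *Hp* (*Wdr18*, *B4galnt1* and *Bahd1*), *Cd177* (*Gstm4*, *Osbpl1a* and *Gpsm1*), *Lcn2* (*Gm15718*, *Elmod2* and *Dvl3*), *Mmp9* (*Ormdl3*, *Leng1* and *Fancg*) and *Ltf* (*Rpa2*, *Tor1b* and *Tor1a*) had small differences on the deposited scale, on which the distance was taken. On recovered reads a like gene can differ more, as *Bahd1* did with means of 77.2 and 36.0.

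Genes next to the members were described by the same fits. The nearest protein-coding genes tested, 2 on each side of each member, gave 40 genes, a rule chosen after the values were seen. On the deposited scale none of the 40 passed the DEG thresholds, which 0.561% of all genes passed as lower and 0.257% as higher. At an adjusted p under 0.05 (limma) 17 were lower and 9 higher, beside 31.4% and 31.6% of all genes. The largest absolute log2 fold change was 0.73. On recovered reads 7 were lower and 3 higher past the same thresholds, beside 12.2% and 12.7% of all genes. Among the lower ones was *Olfm1*, 108.1 kb from *Fcnb*, with means of 26.2 and 1.96 normalized reads. These counts are no evidence about the neighbours as a group. Beside *Camp*, *Nme6* was 4.3 kb away with a log2 fold change of deposited values of -0.05, and beside *Ngp*, *Klhl18* was 2.9 kb away with -0.10 (adjusted p = 0.249 and 0.057). Leaving out single libraries moved *Nme6* between -0.09 and -0.03 and *Klhl18* between -0.14 and -0.06. *Nme6* passed the test without *Piezo1cKO* replicate 1 (adjusted p = 0.0307, limma) and *Klhl18* without *Piezo1cKO* replicate 2 (0.0201). *Mmp8* lies in the cluster of metalloproteinase genes on chromosome 9. *Mmp27*, 2.9 kb away, rose from a mean of 3.91 to 23.1 normalized reads (adjusted p = 0.0009), and *Mmp13*, 275.1 kb away, fell from 4.88 to 0.325 (adjusted p = 0.0044, and 0.282 after re-centring on the library median).

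Other proteins of the secondary and tertiary granules gave counts in both directions. Of 26 further genes on a list of such proteins, 23 were tested, 6 were lower and 11 higher at an adjusted p under 0.05 (limma), and *Fpr1*, *Fpr2* and *Ptx3* were listed at 0. Their median log2 fold change was 0.03 on deposited values and 0.07 on recovered reads, beside 0.00 for all genes tested on either scale. On the deposited scale the DEGs of the list were *Lrg1* and *Plaur*, both lower. On recovered reads 4 genes were lower (*Orm2* and *Adam8* besides) and 4 higher (*Lyz1*, *Orm1*, *Mmp25* and *Itgam*) past the same thresholds, beside 12.2% and 12.7% of all genes. Several of these calls rest on few reads. Group totals in WT and *Piezo1cKO* libraries were 16 and 2 recovered reads for *Orm2*, 1 and 44 for *Lyz1*, 1 and 13 for *Orm1* and 1 and 25 for *Mmp25*. *Lrg1*, which encodes the secreted leucine-rich alpha-2-glycoprotein, fell from 461 ± 30.5 to 5.07 ± 2.72 normalized reads (log2 fold change on deposited values -1.96, adjusted p = 1.1e-17). *Plaur*, which encodes the urokinase receptor, fell from 8572 ± 339 to 2553 ± 81.2 (log2 fold change on deposited values -1.27, adjusted p = 1.1e-17, limma). The membrane proteins of these granules did not follow a single direction. *Itgam* (CD11b) rose from 99.5 ± 8.73 to 201 ± 18.9 (adjusted p = 1.8e-07), *Cybb*, the heavy chain of flavocytochrome b558, fell from 2337 ± 58.8 to 1567 ± 82.1 (adjusted p = 2.6e-09), and *Itgb2* (CD18) had 2062 ± 53.2 and 2169 ± 83.8 (adjusted p = 0.138). *Cybb* and *Itgb2* were chosen after their values were seen.

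**Figure D4:**
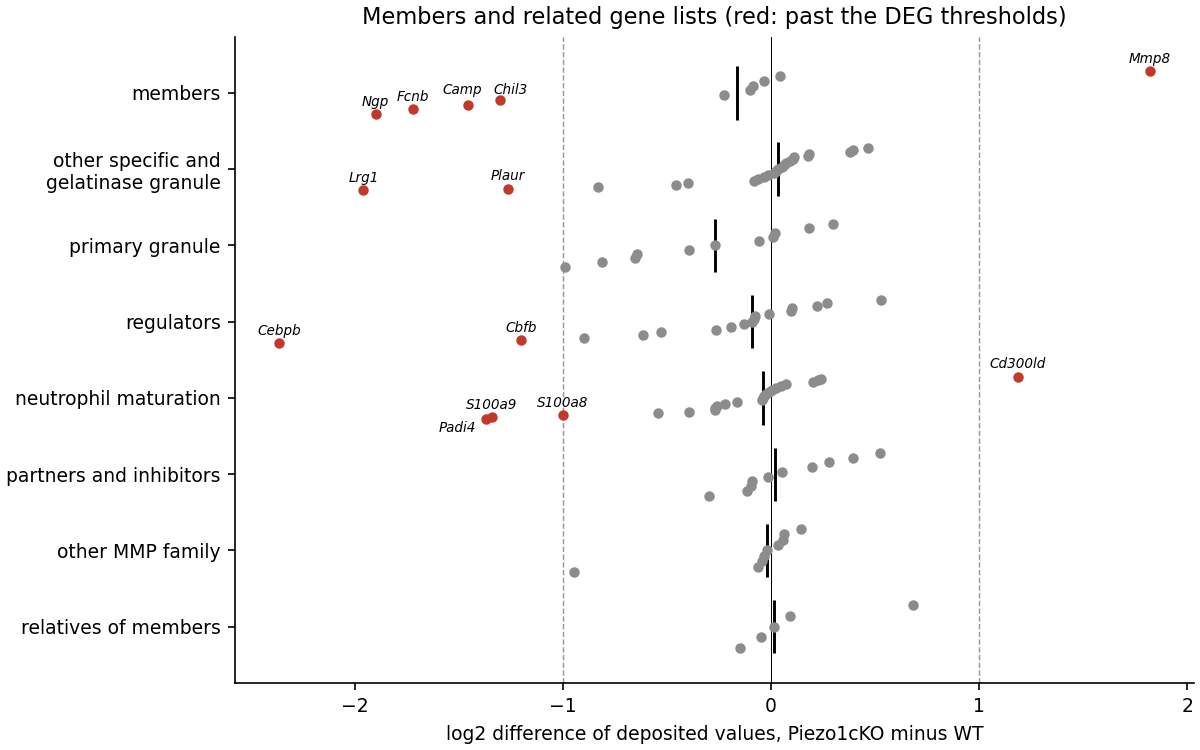
Log2 difference of deposited values, *Piezo1cKO* minus WT, for each tested gene of the 10 members and 7 related lists, with black bars at the list medians, dashed lines at the DEG threshold of 1 and red symbols for DEGs. The medians lie between -0.27 (primary granule) and 0.03 (other secondary and tertiary granule proteins), and on this scale DEGs stand on both sides only among the members and the neutrophil maturation list.

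Primary granule genes come on before the members. Of 12 listed, 11 were tested, 6 were lower and 2 higher at an adjusted p under 0.05, where 31.4% of all genes were lower and 31.6% higher, none was a DEG on the deposited scale, and the median log2 fold change was -0.27. On recovered reads *Elane* (-1.09) and *Ctsc* (-1.37) were past the DEG thresholds, and the list median was -0.37. *Bpi* was listed at 0. *Mpo* (myeloperoxidase) fell from 290118 ± 9723 to 157979 ± 3833 normalized reads and *Elane* (neutrophil elastase) from 229690 ± 12032 to 107782 ± 7903. Their log2 fold changes on deposited values were -0.65 and -0.81 (adjusted p = 2.4e-17 and 1.7e-14, limma). *Ctsc*, the protease that activates the granule serine proteases, had the largest step on the deposited scale, -0.99 (adjusted p = 1.3e-16, limma). There it passed the fold threshold without WT replicate 2 (-1.0026) or *Piezo1cKO* replicate 1 (-1.0018). *Prtn3* (proteinase 3) and *Prss57* fell by 0.64 and 0.40 on the deposited log2 scale (adjusted p = 4.7e-13 and 1.3e-08, limma). *Serpinb1a*, an inhibitor of these proteases, rose by 0.30 on that scale (adjusted p = 1.4e-07, limma). On the deposited scale *Camp*, *Ngp*, *Fcnb* and *Chil3* fell by more than any primary granule gene listed, but they were picked with this contrast known. The other members that were lower, *Hp* (-0.23), *Mmp9* (-0.10), *Lcn2* (-0.09) and *Ltf* (-0.04), fell by less than *Mpo*. The further secondary and tertiary granule genes had a median of 0.03, so no order between the granule classes follows.

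Of the transcription factors listed as regulators of granule genes, 17 of 18 were tested, 9 were lower and 5 higher at an adjusted p under 0.05, and the median log2 fold change was -0.09. *Cebpb* and *Cbfb* were the DEGs on the deposited scale, while on recovered reads 4 genes were lower (*Cebpg* and *Rara* besides) and *Cebpa* was higher. The list median on recovered reads was -0.23. *Cebpb*, a C/EBP factor of stress-induced granulopoiesis, fell from 950 ± 10.5 to 34.4 ± 1.73 normalized reads. Its log2 fold change was -2.37 on deposited values (adjusted p = 8e-20, limma) and -4.77 on recovered reads. *Cbfb*, the partner subunit of RUNX factors, fell from 1679 ± 81.8 to 471 ± 24.1 (log2 fold change on deposited values -1.20, adjusted p = 1.6e-15, limma). The 2 C/EBP factors best known from granulocyte development were named after their values were seen. *Cebpe*, which encodes C/EBPε, had 6817 ± 203 normalized reads in WT LSCs and 7482 ± 479 in *Piezo1cKO* LSCs, with overlapping groups, and passed the test with a log2 fold change of 0.10 (adjusted p = 0.0066), which was lost without WT replicate 1 (adjusted p = 0.0549), *Piezo1cKO* replicate 2 (0.0501) or *Piezo1cKO* replicate 3 (0.0732). *Cebpa* rose from 122 ± 5.28 to 282 ± 2.07 (log2 fold change on deposited values 0.53, adjusted p = 5.3e-10, limma).

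The list of neutrophil maturation genes had 23 of 28 tested, 10 lower and 4 higher at an adjusted p under 0.05, with a median log2 fold change of -0.04. Past the DEG thresholds 3 were lower and 1 higher on the deposited scale, and 5 lower and 2 higher on recovered reads. On recovered reads the list median was -0.30. *S100a8* and *S100a9*, the subunits of calprotectin, fell from 216 ± 12.0 to 18.9 ± 4.81 and from 262 ± 12.1 to 6.09 ± 2.15 normalized reads. Their log2 fold changes were -1.0 and -1.34 on deposited values (adjusted p = 1.1e-13 and 7.7e-16, limma). On recovered reads they were -3.50 and -5.37. *S100a8* stood at the fold threshold and was under it without WT replicate 1 (-0.98), *Piezo1cKO* replicate 1 (-0.99) or *Piezo1cKO* replicate 2 (-0.99). *Padi4*, the enzyme that citrullinates histones in neutrophils, fell from 2451 ± 115 to 604 ± 31.8 (log2 fold change on deposited values -1.37, adjusted p = 1.3e-16, limma). *Cd300ld*, an activating receptor of myeloid cells, rose from 39.9 ± 1.68 to 335 ± 45.3. Its log2 fold change was 1.19 on deposited values (adjusted p = 1.0e-13, limma) and 3.05 on recovered reads. On the deposited scale it was the DEG of this list that went with *Mmp8*.

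Among 15 receptors, partners and inhibitors of the members, 10 were tested, 4 were lower and 4 higher at an adjusted p under 0.05, with a median log2 fold change of 0.02. None was a DEG on the deposited scale. On recovered reads 4 were lower and 2 higher past the DEG thresholds, and the list median was -0.31. Of the metalloproteinase inhibitors on this list, *Timp1* was listed at 0, *Timp2* fell from 23.2 ± 1.77 to 10.0 ± 3.26 normalized reads (adjusted p = 0.0035), *Timp3* fell from 41.7 ± 5.59 to 0.975 ± 1.69 (adjusted p = 3.6e-08) and *Reck*, a membrane-anchored inhibitor, from 24.8 ± 3.79 to 8.42 ± 0.32 (adjusted p = 0.0006). *Cd163*, the receptor for complexes of haptoglobin and hemoglobin, rose from 20.9 ± 4.44 to 111 ± 9.87 (adjusted p = 9.8e-10), and *Pecam1*, the ligand of CD177, from 2892 ± 15.0 to 3499 ± 134 (adjusted p = 4.3e-06). *Lrp1*, a receptor that clears lactoferrin and proteases, rose from 167 ± 17.2 to 255 ± 21.7 (adjusted p = 2.1e-05). Of 19 other metalloproteinase genes, 9 were tested, and 4 were lower and 4 higher at an adjusted p under 0.05, the same counts as past the DEG thresholds on recovered reads, with no DEG on the deposited scale. With a mean deposited value of at least 5, where few of the list were tested, 1 passed. *Mmp19* was the most abundant and fell from 552 ± 15.2 to 159 ± 1.01 (log2 fold change on deposited values -0.95, adjusted p = 6.1e-14, limma). The remaining ones past the test had means of at most 23.1 normalized reads in either group, with *Mmp14* and *Mmp23* (adjusted p = 0.0939 for the latter after re-centring) lower and *Mmp15* and *Mmp25* higher. Of 13 relatives of the members, 5 were tested, none was a DEG on the deposited scale and *Fcna* was the DEG on recovered reads. *Trf* (transferrin), a relative of *Ltf*, rose from 2771 ± 47.6 to 5341 ± 103 (log2 fold change on deposited values 0.68, adjusted p = 3.1e-14, limma). *Fcna*, a relative of *Fcnb*, rose from 0 to 11.7 ± 4.05 (adjusted p = 0.0001). *Chil1*, a relative of *Chil3*, fell from 67.6 ± 5.64 to 42.0 ± 12.7 (adjusted p = 0.0042).

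The libraries were compared with marker lists of the sort and of other blood cells, because in sorted bulk cells fewer cells of a type and less RNA per cell cannot be told apart. Genes of the sort were present or low as the gate has them, though not equal between the groups. *Kit* (2522 ± 58.4 and 3425 ± 86.8 normalized reads in WT and *Piezo1cKO* LSCs), *Cd34* (3721 ± 60.1 and 5796 ± 162) and *Fcgr3* (5405 ± 113 and 5323 ± 168) were high. *Fcgr2b*, which with *Fcgr3* encodes CD16/32, was high in both groups but fell from 3468 ± 83.7 to 1667 ± 79.4 (adjusted p = 1.3e-13, limma), and *Ly6a*, which encodes Sca-1, was at 0.66 ± 0.57 and 11.4 ± 4.79. This list, with 3 of 7 genes higher and 2 lower, summed to 19308 to 19607 in WT and 20243 to 20730 in *Piezo1cKO* libraries, with *Fcgr3* the most abundant in WT and *Cd34* in *Piezo1cKO* LSCs. Markers of mature neutrophils differed in level. *Retnlg* and *Il1b* were listed at 0, *Ly6g* had 0.323 normalized reads on average in WT libraries and none in *Piezo1cKO* libraries, and *Mmp25* and *Stfa2l1* had means under 10 in both groups. *Cxcr2*, the chemokine receptor of mature neutrophils, was detected at 29.7 ± 3.76 and 37.5 ± 3.88 (adjusted p = 0.188, limma), and *Csf3r*, the G-CSF receptor, which precursors also express, fell from 1800 ± 13.7 to 1204 ± 26.3 (adjusted p = 1.1e-09). The mature neutrophil list, of which 2 of the 5 genes tested were lower and 1 higher, summed to 4147, 4353 and 4374 normalized reads in WT libraries and 1868, 1886 and 1832 in *Piezo1cKO* libraries. Most of these reads were of *Padi4*, the most abundant gene of the list in WT LSCs, and *Csf3r*, the most abundant in *Piezo1cKO* LSCs. The lower sums are thus mainly the decreases of these genes. Other lists also differed between the groups. The mast cell and basophil list, with 8 of 9 genes tested higher and none lower, had sums of 5013, 5180 and 5260 in WT and 15938, 16013 and 15878 in *Piezo1cKO* libraries. *Prss34* was its most abundant gene in WT LSCs and *Cpa3* in *Piezo1cKO* LSCs. *Cpa3* (carboxypeptidase A3) rose from 565 ± 30.6 to 5003 ± 185 and *Hdc* (histidine decarboxylase) from 816 ± 20.2 to 3693 ± 21.6 (adjusted p = 5.5e-20 and 2.2e-18), while *Mcpt4* had 0.323 normalized reads on average in WT libraries and none in *Piezo1cKO* libraries. The monocyte and macrophage list, with 7 of 12 genes tested higher and 1 lower, had sums of 12345, 12396 and 11913 in WT and 16025, 15602 and 15885 in *Piezo1cKO* libraries, with *Cd68* the most abundant. *Fn1* (fibronectin), the DEG of this list on the deposited scale, rose from 24.5 ± 1.37 to 285 ± 12.2. Its log2 fold change was 1.19 on deposited values (adjusted p = 4.2e-15, limma) and 3.51 on recovered reads. *Ccr2* rose from 548 ± 27.4 to 1233 ± 96.5 (adjusted p = 7.8e-12). The macrophage genes *Mrc1* and *C1qb* rose from 0 and 0.673 to means of 10.8 and 11 (adjusted p = 0.0005 and 0.0009), and *C1qa* was listed at 0. Eosinophil markers went both ways, with 4 of 8 higher and 3 lower, sums of 7221 to 7800 in WT and 7323 to 7648 in *Piezo1cKO* libraries, *Prg2* the most abundant and *Epx* (eosinophil peroxidase) falling from 2013 ± 57.6 to 478 ± 29.8 (adjusted p = 1.2e-16).

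Of the lymphoid lists, B cell markers had sums of 12224, 12586 and 12229 normalized reads in WT and 22740, 22631 and 22355 in *Piezo1cKO* libraries, mostly from *Ighm*, with 3 of 4 genes tested higher, while *Ms4a1* and *Pax5* were at or near 0. T and NK cell markers had low sums, 15.5, 11.1 and 7.70 in WT and 51.2, 56.5 and 66.1 in *Piezo1cKO* libraries, with groups that did not overlap, with *Cd8a* listed at 0, *Cd3d* the most abundant in WT and *Klrb1c* in *Piezo1cKO* LSCs, and 2 of 3 genes tested higher and 1 lower. Dendritic markers (*Flt3* the most abundant) had sums of 830, 871 and 879 in WT and 1820, 1794 and 1787 in *Piezo1cKO* libraries, with 5 of 6 higher and 1 lower. Megakaryocyte markers (*Itga2b* the most abundant in WT and *Itgb3* in *Piezo1cKO* LSCs) had sums of 370 to 456 in WT and 642 to 673 in *Piezo1cKO* libraries, with 3 of 5 higher and 2 lower. Erythroid markers (*Klf1* the most abundant) summed to 111, 122 and 116 in WT and 43.9, 41.9 and 31.5 in *Piezo1cKO* libraries, lower in each of the latter, with 2 of 5 lower and none higher. The part of other cells in the members' differences was not tested.

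**Figure D5:**
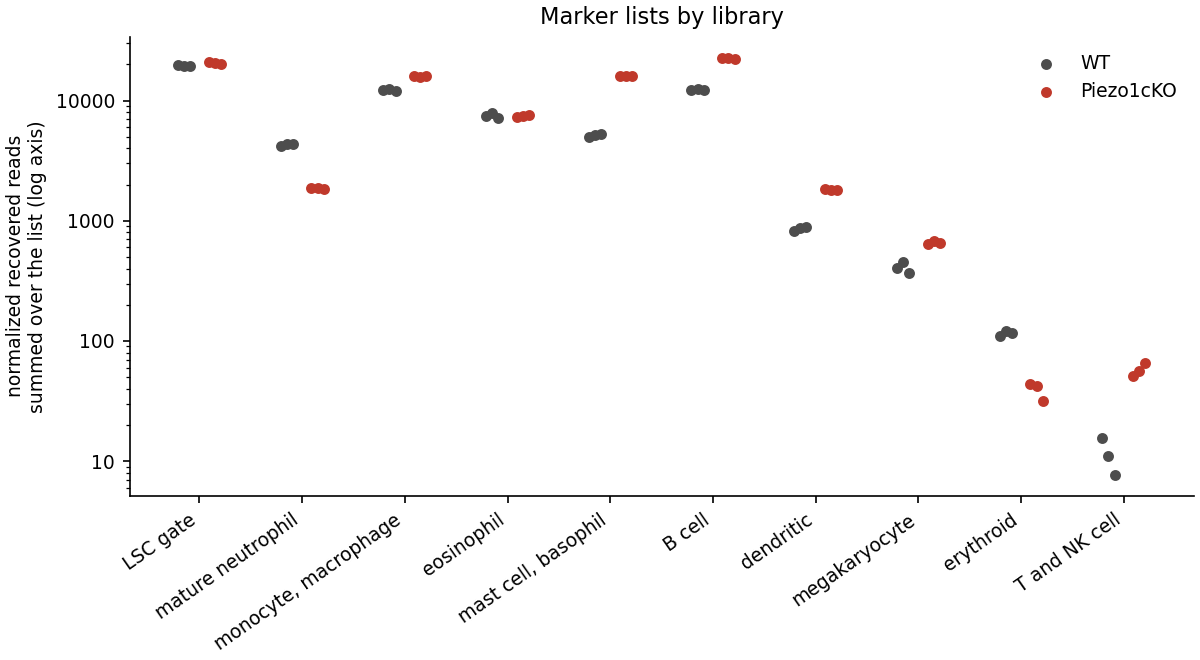
Normalized recovered reads summed over each marker list (log axis) in 3 WT (grey) and 3 *Piezo1cKO* (red) libraries. Mast cell and basophil sums lie between 15878 and 16013 in *Piezo1cKO* libraries against 5013 to 5260 in WT libraries. Mature neutrophil sums, mostly reads of *Padi4* and *Csf3r*, are lower in all 3 *Piezo1cKO* libraries, whereas *Cxcr2* of that list (means 29.7 in WT and 37.5 in *Piezo1cKO*) is not.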

How the data were processed

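RNA of 3 WT and 3 *Piezo1cKO* LSC libraries was made into cDNA with oligo-dT primers by a protocol based on Smart-seq2, cut with Tn5 and sequenced as paired ends. The authors cleaned reads with fastp 0.20.1, aligned them to GRCm38 with HISAT2 2.2.1, quantified genes with featureCounts 2.0.1 and normalized the counts with DESeq2 1.28.1. The deposited table holds log2 values per gene that the authors had normalized, in the form of a regularized log. The transform is not named in the sources used here, and whether counting used strand is not given there. Reads that genes share with near-identical copies or overlapping genes could therefore be uncertain. A count model had been foreseen only for a table of counts, so limma (version 3.58.1, R version 4.3.3; lmFit and eBayes with a trend, no covariate) was fitted to the deposited values of 16746 genes (mean at or above 1), with Benjamini-Hochberg adjustment.

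Whole reads were recovered by inverting the transform, and 5 genes, none of them described here, did not return (largest misfit 0.0099). On simulated data for 24565 genes 100% of reads came back exactly. Recovered reads with at least 10 in total (17352 genes) were fitted with limma-voom. Lengths and coordinates came from GENCODE M21 and promoters from RefSeq. Other steps ran in Python 3.11.15 with pandas 2.3.3, numpy 2.4.6, scipy 1.17.1 and, for plots, matplotlib 3.10.9.

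The members and all gene lists were chosen with earlier results of these data known. Named genes are mainly the 10 members, the DEGs of each related list or, where none passed, at most 6 genes with the largest changes among those past the test with separate groups, and genes of the marker lists. *Itgam* falls under this rule through the list of receptors, partners and inhibitors. Others were named outside it, among them *Cybb*, *Itgb2*, *Cebpe*, *Cebpa*, *Timp2* and genes past the DEG thresholds only on recovered reads. *Lyz2*, *Itgam*, *Itgb2*, *Fpr2*, *Mmp25* and some maturation genes are on more than 1 list. The smallest two-sided p of an exact permutation test here is 0.1, so single values were given no such test. Alternatives were other filters, re-centring, recovered reads, library totals, a replicate block, each library left out, no fold threshold and coding length.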

Additional observations from a re-analysis of the deposited data

How the results depend on the processing

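On the deposited scale the count of DEGs, 137, ran from 134 to 144 when each library was left out in turn, and was 136 without a filter, 137 with a mean of at least 5 and 132 after re-centring on the library median. It was 4322 on recovered reads, 4333 on recovered reads scaled to library totals, and 10556 without a fold change threshold. Fits of recovered reads undid the pull towards the mean but also changed the model (limma-voom) and the filter (17352 genes). Their higher counts therefore cannot be put down to a single choice. Members past the DEG thresholds numbered 5 in every fit of the deposited values, whichever library was left out, 7 on both scalings of recovered reads (with *Mmp9* and *Ltf* added) and 8 without a fold change threshold. Genes of the related lists past an adjusted p of 0.05 (limma) numbered 69, with 65 to 71 when libraries were left out and 54 with a mean of at least 5, where metalloproteinase genes went from 8 to 1 and partners and inhibitors from 8 to 4, fewer being tested. Whether replicate numbers pair the libraries was not settled. Deviations of libraries with the same number had correlations of 0.223, 0.183 and 0.081, and unlike numbers were not compared. A replicate block gave 137 DEGs, 5 members and 73 genes of the related lists. No member difference changed sign under any alternative run. Of 40 other named genes followed, none changed sign, and 7 changed the call the text gives (the DEG thresholds for DEGs, otherwise the adjusted p) in some alternative, *Cebpe* among them when single libraries were left out. On recovered reads 16 of the 40 passed the DEG thresholds that they did not pass on deposited values. *S100a8* was past the DEG thresholds with a log2 fold change of -1.0 and went to -0.98 on re-centring, and *Mmp23* and *Mmp13* lost their call on re-centring (adjusted p = 0.0939 and 0.282). *Itgb2* passed on re-centring (adjusted p = 0.0348), and the neighbours *Nme6* and *Klhl18* passed in some fits; the causes were not tested. Coding length in place of the exon model put *Camp* (89.4) above *Fcnb* (85.5) in WT LSCs and *Ngp* (18.9) above *Camp* (13.2) and *Fcnb* (12.2) in *Piezo1cKO* LSCs. With means of 4.59 *Ltf* and 13.8 *Mmp9* normalized reads in WT LSCs, depth limits both genes to a lower bound or a wide interval.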
